A study of Mus musculus with 20 samples.

Results

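Myelin and mature oligodendrocyte genes were followed in the mouse hippocampus as 9 genes, Mbp, Mobp, Mog, Mag, Cnp, Cldn11, Mal, Ermn and Opalin, chosen by name as markers of myelin out of the 24513 genes counted. Polyadenylated RNA had been sequenced from hippocampi of male C57BL/6J mice at 9 months of age, as 20 libraries in 4 labelled genotypes of 5 libraries each. WT mice were labelled as carrying neither alteration, and C3aR KO mice as lacking the receptor for complement fragment C3a. PS19 mice carry a human tau transgene with a frontotemporal dementia mutation under the mouse prion promoter. PS19/C3aR KO mice were labelled as carrying both alterations. That promoter is active in neurons and in other cells, and a whole hippocampus holds all its cell types. Whether a library stands for 1 animal is not stated, and p-values here reflect library-to-library spread, some of which may be technical. In whole tissue, more oligodendrocytes and more RNA per oligodendrocyte cannot be told apart.

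Myelin in the central nervous system is made by mature oligodendrocytes, which wrap axons in a compacted, lipid-rich membrane. Some of the proteins that build it hold the membrane layers together, others seal the spaces between layers, and others sit where myelin meets the axon or the outside. The transcription factors Sox10 and Myrf drive most of these genes, and the transcripts are among the most abundant in mature oligodendrocytes.

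Gene counts per library ranged from 33885850 to 47828111, so the lowest of the 9 genes, Opalin, was still read at 10.4 CPM (each gene's count scaled to a library of 1000000 gene counts) or more in every library. The targeted receptor gene went against its label: C3ar1 was at 1.66 to 2.34 CPM in WT and at 14.4 to 18.01 CPM in the libraries labelled C3aR KO, with 4.86 to 14.0 CPM in PS19 and 15.6 to 18.7 CPM in those labelled PS19/C3aR KO. C3ar1 does not tell which of the 4 labels are right, so every direction below, that of PS19 against WT included, is between libraries as labelled. The ribosomal precursor Rn45s took 2.85 to 4.48% of gene counts in WT and 0.873 to 3.65% in PS19. Ttr, the main transcript of choroid plexus epithelium, ranged from 9.70 to 4213 CPM over the 20 libraries.

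All 9 myelin genes had their lowest mean in C3aR KO, then WT, then PS19/C3aR KO, and their highest mean in PS19. In the libraries labelled PS19 against those labelled WT, 3 of the 9 rose: Cldn11 by 1.56-fold, Ermn by 1.48-fold and Mag by 1.47-fold (a call is a Benjamini-Hochberg adjusted p below 0.05 over all genes in edgeR's quasi-likelihood test). Over the 16657 genes tested, 7.5% were called higher and 10.8% were called in either direction. The other 6 had fitted log2 fold changes of 0.22 to 0.36 and did not pass. The median over the 9 was 0.35, against -0.01 over all genes tested, and 9 of 9 lay above 0, against 48.3% of all genes. No myelin gene was called between any other pair of genotypes compared.

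**Figure D1:**
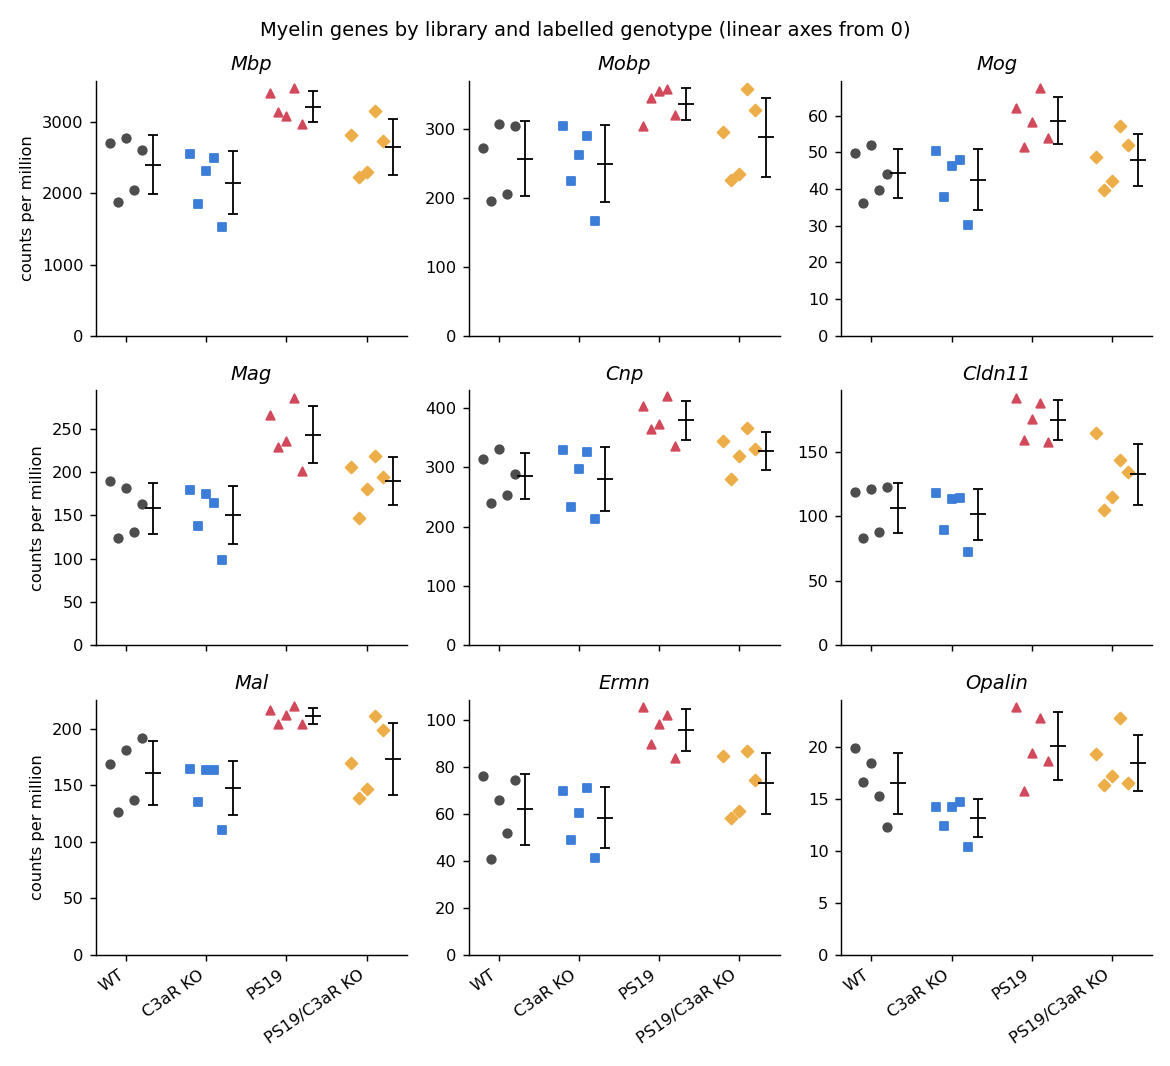
CPM for the 9 myelin genes in each of the 20 libraries, by labelled genotype, on linear axes from 0; black marks are the mean and SD over 5 libraries. For 6 of the 9 genes all PS19 libraries lie above all WT libraries, and C3aR KO has the lowest mean in each panel.

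Cldn11, on chromosome 3 at 31149920-31164324 (GRCm38, plus strand), encodes claudin-11, which forms the tight junction strands that seal the layers of central myelin. It stood at 118, 83.0, 121, 87.8 and 122 CPM in the WT libraries and at 192, 159, 175, 188 and 158 CPM in the PS19 libraries. The groups did not overlap, and the lowest PS19 library lay well above the highest WT one. Cldn11 rose by 0.65 on the log2 scale (SE 0.15, adjusted p = 0.00779), the largest difference of the 9 genes, and 5.53% of all genes tested had a higher fitted difference. It was called in all 31 alternative fits, with log2 fold changes of 0.56 to 0.74.

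Mag encodes myelin-associated glycoprotein, an adhesion molecule on the innermost myelin membrane that binds gangliosides on the axon. The gene lies on chromosome 7 at 30899176-30914873, minus strand. Its WT libraries were at 190, 124, 181, 131 and 163 CPM and its PS19 libraries at 267, 229, 236, 285 and 201 CPM. The lowest PS19 library, number 5, was close to the highest WT library, but the groups did not overlap. Mag rose by 0.56 (SE 0.16, adjusted p = 0.0262).

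Ermn encodes ermin, a cytoskeletal protein that binds actin and appears late in oligodendrocyte maturation. It lies on chromosome 2 at 58045113-58052864, minus strand, where Galnt5 overlaps it on the opposite strand, and the strand setting of the counting is not given. Ermn was at 76.0, 40.8, 66.0, 52.0 and 74.4 CPM in WT and at 105, 89.5, 98.1, 102 and 83.9 CPM in PS19. WT library 2 was the lowest of all 20 libraries for this gene, and again no PS19 library fell to the WT range. Ermn rose by 0.57 (SE 0.17, adjusted p = 0.0413).

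The calls for Mag and Ermn were lost without some single libraries, while their fitted differences stayed at 0.48 to 0.64 and 0.44 to 0.66. Without WT library 2, WT library 4, PS19 library 1 or PS19 library 4, Cldn11 alone of the 9 was called, with adjusted p values for Mag of 0.068, 0.0816, 0.061 and 0.0767 and for Ermn of 0.0915, 0.112, 0.0899 and 0.0889 in that order. Ermn also missed the threshold without WT library 3 (adjusted p = 0.06), PS19 library 2 (0.0542), PS19 library 3 (0.0855) or PS19/C3aR KO library 5 (0.0502). Of the 31 alternative fits, Mag was called in 26 and Ermn in 22. The count was also 1 in the fit with the Rn45s share of each library as a covariate, in which the fold changes were larger (0.74 for Cldn11, 0.64 for Mag and 0.65 for Ermn) and their errors wider. When the choroid plexus score entered as a covariate, the same 3 genes were called, at 0.58, 0.51 and 0.50. With the library number entered as a block, the adjusted p was 0.0079 for Mag and 0.0119 for Ermn. What the library numbers stand for is not stated. The share of all genes called is not given here for the alternative fits. Calls lost or gained in them may thus not be particular to the myelin genes.

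The sequence just before the transcription start is shown for the 3 genes that rose and for Mobp and Cnp, which did not pass, because the 9 genes moved together from library to library (as given further on). Each run is the 250 bases before a RefSeq start (GRCm38.p6), 5′ to 3′ on the strand of the gene, with capitals for ACAAAG or ACAATG, the core letters that SOX factors bind, and for CTGGCAC or CTGGTAC, letters of the MYRF motif, on either strand.
Cldn11, chr3:31149670-31149919: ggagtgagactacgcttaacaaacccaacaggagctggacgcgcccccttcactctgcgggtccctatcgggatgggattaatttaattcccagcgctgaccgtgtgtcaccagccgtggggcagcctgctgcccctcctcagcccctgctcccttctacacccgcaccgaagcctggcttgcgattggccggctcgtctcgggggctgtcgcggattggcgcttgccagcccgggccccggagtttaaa
Mag, chr7:30914864-30915113: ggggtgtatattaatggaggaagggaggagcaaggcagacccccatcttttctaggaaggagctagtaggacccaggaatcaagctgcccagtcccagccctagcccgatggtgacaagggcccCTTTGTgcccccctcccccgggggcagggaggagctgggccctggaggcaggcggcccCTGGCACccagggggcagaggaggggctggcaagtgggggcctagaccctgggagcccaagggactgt
Ermn, chr2:58052865-58053114: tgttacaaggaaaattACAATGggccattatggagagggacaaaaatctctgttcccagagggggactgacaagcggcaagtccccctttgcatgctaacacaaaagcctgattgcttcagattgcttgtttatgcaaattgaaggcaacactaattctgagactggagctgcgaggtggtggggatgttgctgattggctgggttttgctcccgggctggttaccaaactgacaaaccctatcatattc
Mobp, chr9:120149492-120149741: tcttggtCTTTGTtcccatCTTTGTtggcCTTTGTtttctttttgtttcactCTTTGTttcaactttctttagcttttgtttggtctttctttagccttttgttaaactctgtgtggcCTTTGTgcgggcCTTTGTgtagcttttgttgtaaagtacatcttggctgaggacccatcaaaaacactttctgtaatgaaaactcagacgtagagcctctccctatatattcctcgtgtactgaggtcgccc
Cnp, chr11:100574689-100574938: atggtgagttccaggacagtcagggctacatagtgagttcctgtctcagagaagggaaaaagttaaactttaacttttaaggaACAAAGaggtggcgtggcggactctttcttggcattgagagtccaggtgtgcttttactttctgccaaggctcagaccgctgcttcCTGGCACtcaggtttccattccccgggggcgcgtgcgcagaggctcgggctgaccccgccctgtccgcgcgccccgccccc
The Cldn11 window held neither set of letters, and the Mobp window held 6 SOX matches. Whether the letters go with the differences between genotypes was not tested. In all, 10 such windows of 8 of the 9 genes were searched, Mag having 3 and Mbp being left out. SOX letters stood in 6 of the 10 windows, of 5 of the 8 genes, against 18.6% of the 15722 windows of all genes. MYRF letters stood in 4 of the 10, those of Mog, Cnp and the upstream starts of Mag, against 5.92% of all windows. Those 2 Mag windows share 191 of their bases and hold the same SOX and MYRF letters, so by gene the MYRF letters stood in 3 of 8. In Mag the SOX and MYRF letters began 126 and 68 bases before the start shown. The TATA box letters TATAAA were in 0 of the 10 windows and in 7.07% of all. The sets of letters do not overlap one another, and a match is a description of the sequence only.

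The surface glycoprotein Mog and the membrane glycoprotein Opalin had PS19 libraries within the WT range and were not called. Mog, on the outermost face of the sheath (chromosome 17 at 37010743-37023398, minus strand), was at 49.7, 36.1, 52.0, 39.7 and 44.0 CPM in WT and 62.0, 51.5, 58.3, 67.5 and 53.8 CPM in PS19. All but PS19 library 2 lay above the highest WT library, and Mog differed by 0.34 on the log2 scale (SE 0.14, adjusted p = 0.125). Opalin, a sialylated transmembrane protein of oligodendrocytes (chromosome 19 at 41061710-41077113, minus strand), was at 19.8, 16.6, 18.5, 15.3 and 12.3 CPM in WT and 23.9, 15.7, 19.4, 22.8 and 18.7 CPM in PS19. Its groups overlapped, with 2 PS19 libraries above the highest WT one, and it had the smallest difference of the 9, 0.22 (SE 0.13, adjusted p = 0.327).

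Cnp and Mal did not overlap between PS19 and WT but missed the threshold. Cnp encodes the cyclic nucleotide phosphodiesterase that keeps cytoplasm-filled channels in myelin open (chromosome 11 at 100574904-100591729, plus strand, overlapped by Dnajc7 on the opposite strand). Its WT libraries were at 314, 240, 330, 253 and 290 CPM and its PS19 libraries at 404, 364, 373, 420 and 336 CPM, a log2 fold change of 0.35 (SE 0.12, adjusted p = 0.0705). It was called in 6 of the 31 alternative fits, DESeq2 among them (adjusted p = 0.0458). Mal, a raft proteolipid of myelin membranes (chromosome 2 at 127633226-127656695, minus strand), was at 169, 126, 181, 137 and 192 CPM in WT and 217, 204, 212, 220 and 204 CPM in PS19. The PS19 libraries were tightly grouped, with a coefficient of variation of 3.46% against 17.6% in WT, and Mal differed by 0.33 (SE 0.14, adjusted p = 0.13).

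Mbp and Mobp encode basic proteins that bind the cytoplasmic faces of the membrane in compact myelin. Mbp (chromosome 18 at 82475146-82585637, plus strand) was at 2702, 1873, 2779, 2048 and 2604 CPM in WT and 3405, 3132, 3083, 3473 and 2963 CPM in PS19. Every PS19 library exceeded every WT library, and Mbp differed by 0.36 on the log2 scale (SE 0.14, adjusted p = 0.122). Mobp (chromosome 9 at 120149707-120181484, plus strand) was at 272, 195, 308, 205 and 305 CPM in WT and 304, 344, 355, 357 and 320 CPM in PS19, and PS19 library 1 fell within the WT range. Mobp differed by 0.33 on the log2 scale (SE 0.17, adjusted p = 0.236).

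In all, 6 of the 9 genes (Mbp, Mag, Cnp, Cldn11, Mal and Ermn) had every PS19 library above every WT library in CPM. Of all genes tested, 8.11% had that separation. Scaled by TMM (trimmed mean of M-values, the normalization used in the fits), the same 6 genes were separated, with 5.93% of all genes. On the TMM-scaled log2 scale WT libraries 2 and 4 were below the WT mean in every myelin gene. The biological coefficient of variation of the 9 genes was 13.5 to 19.2%, against a median of 10.9% over all genes.

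**Figure D2:**
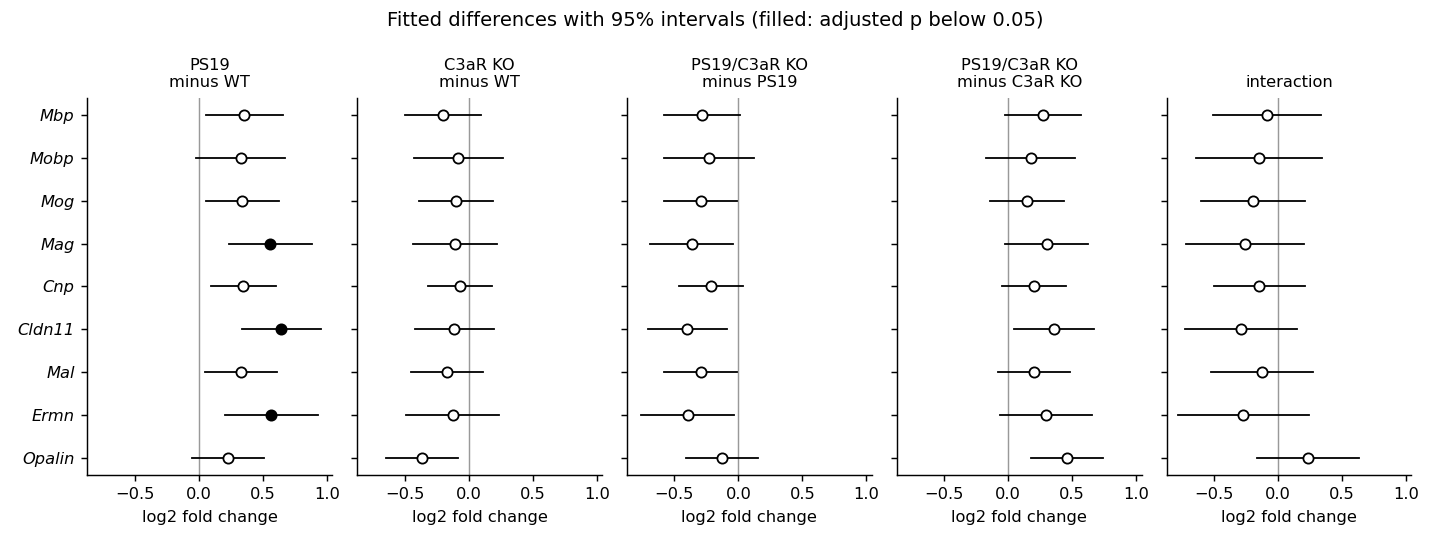
Fitted log2 fold changes of the 9 genes with 95% intervals in the 4 comparisons of genotypes and in the interaction (the PS19 difference in the libraries labelled C3aR KO minus that in the others); filled points have an adjusted p below 0.05. The filled points are Mag, Cldn11 and Ermn in PS19 minus WT.

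Between the libraries labelled C3aR KO and WT, edgeR called 0 of the 9 genes (0.06% of all genes), DESeq2 and limma-voom also 0, and 1, Opalin, had an unadjusted p below 0.05, as 6% of all genes had in edgeR. All 9 fitted differences were below 0, with a median of -0.11, but those of Mobp, Mog, Mag and Cnp turned above 0 without C3aR KO library 5. That library had the lowest level of all 20 for 8 of the 9 genes, Ermn excepted. Opalin was furthest down at -0.36 (SE 0.14, adjusted p = 0.686), at 14.2, 12.4, 14.2, 14.7 and 10.4 CPM in C3aR KO against 12.3 to 19.8 CPM in WT.

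Between PS19/C3aR KO and PS19, 0 of the 9 genes were called by edgeR, DESeq2 or limma-voom (0.252% of all genes in edgeR), while 5 (Mog, Mag, Cldn11, Mal and Ermn) had an unadjusted p below 0.05 in each of the 3, as 14.5% of all genes had in edgeR. All 9 differences were below 0, with a median of -0.29, and they stayed below 0 in every alternative fit. Cldn11 had the largest, -0.40 (SE 0.15, adjusted p = 0.208), at 164, 105, 115, 144 and 134 CPM against 158 to 192 CPM in PS19. PS19/C3aR KO library 1 reached the PS19 range for this gene, and the other 4 lay below it. Mag was at 206, 147, 181, 219 and 195 CPM in PS19/C3aR KO, with a mean between those of WT and PS19 and a log2 fold change of -0.37 (SE 0.16, adjusted p = 0.282).

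PS19/C3aR KO against C3aR KO also gave 0 calls among the 9 in all 3 tools (0.006% of all genes in edgeR), with an unadjusted p below 0.05 for Cldn11 and Opalin and, in edgeR, for 9.71% of all genes. All 9 differences were above 0, with a median of 0.27 against -0.0015 over all genes. The order of the genes was not that of PS19 against WT. Opalin led with 0.46 (SE 0.14, adjusted p = 0.213), and its PS19/C3aR KO libraries at 19.3, 16.3, 17.2, 22.8 and 16.5 CPM all lay above the C3aR KO libraries, a separation that 1.54% of all genes had. Cldn11 followed with 0.36 (SE 0.15, adjusted p = 0.42), and Mog was last with 0.15 (SE 0.14). The interaction was called for 0 of the 9 genes (0.012% of all genes), 0 had an unadjusted p below 0.05 in any of the 3 tools (4.15% of all genes had one in edgeR), and its 95% intervals reached from -0.78 for Ermn to 0.63 for Opalin. Of the 9 estimates 8 were below 0, and that of Opalin was 0.23 (SE 0.19). These comparisons share groups of libraries with each other, so they are not independent of one another.

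Levels between genes can be compared per kilobase of annotated exon. In WT, Mbp stood at 283 CPM per kilobase, Cnp at 78.4, Mal at 57.9, Cldn11 at 57.0, Mag at 38.8, Mobp at 37.5, Mog at 26.02, Ermn at 17.0 and Opalin at 5.60. Mal and Cldn11, and Mag and Mobp, were neighbours closer than their spread between libraries. The exon union of Mbp, 8469 bases, includes exons of long isoforms, so its value per kilobase depends on that annotation. In PS19, Cldn11 at 93.2 CPM per kilobase stood above Mal at 76.1, with Cnp at 104 and Mbp at 379.

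Dividing by the Mbp count of the same library sets aside differences common to the genes and shows which of them differed relative to the main basic protein. Of 8 such ratios compared between PS19 and WT, 3 had an unadjusted p below 0.05. The share of all genes below 0.05 in this permutation test is not given here. The same holds for the later comparison of PS19/C3aR KO with C3aR KO, so neither count of ratios has a background beside it. Cldn11 counts were 4.38, 4.43, 4.36, 4.29 and 4.70% of Mbp counts in the WT libraries and 5.62, 5.09, 5.67, 5.40 and 5.33% in the PS19 libraries. These groups did not overlap (two-sided exact permutation p = 0.00794, the smallest that 5 against 5 allows), and the ratio stayed past 0.05 whichever library was left out and with Cnp as the reference. The mean ratio was 6.57% in WT and 7.54% in PS19 for Mag, and 2.54% and 2.98% for Ermn (two-sided exact permutation p = 0.0159 each), with overlapping groups. With Cnp in place of Mbp, Ermn had an exact permutation p of 0.0556.

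The other 5 ratios to Mbp (Mobp, Mog, Cnp, Mal and Opalin) had exact permutation p values of 0.381 to 0.802. Mobp, for example, was at 10.6% of Mbp in WT and 10.5% in PS19, and Cnp at 11.9% and 11.8%. In an edgeR fit of all genes with the Mbp count as offset, 25.1% of all genes were called in PS19 against WT, but 0 of the 8 myelin genes were: Cldn11 had an adjusted p of 0.0549, Ermn 0.12 and Mag 0.147. The unadjusted p in that fit was below 0.05 for Cldn11 alone.

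In PS19/C3aR KO against C3aR KO the ratio that separated was that of Mog. Mog counts were 1.98, 2.04, 1.999, 1.93 and 1.98% of Mbp in C3aR KO and 1.73, 1.79, 1.84, 1.81 and 1.90% in PS19/C3aR KO (two-sided exact permutation p = 0.00794, 1 of 8 ratios below 0.05). The groups did not overlap, and the mean Mog share was 1.81% in PS19/C3aR KO and 1.98% in C3aR KO. In PS19 against WT the Mog shares were 1.82% and 1.85%, so C3aR KO was the group that stood apart. For Mog, 4 of its 5 libraries lay above the highest WT library. With Cnp as the reference Mog had an exact permutation p of 0.302. The offset fit called 0 of the 8 genes there (0.066% of all genes), with 0 unadjusted p below 0.05. The Cldn11 shares of 4.73% in C3aR KO and 4.98% in PS19/C3aR KO overlapped. Of the 5 C3aR KO libraries, 3 exceeded the highest WT share for Cldn11, 3 for Mag and 0 for Ermn.

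**Figure D3:**
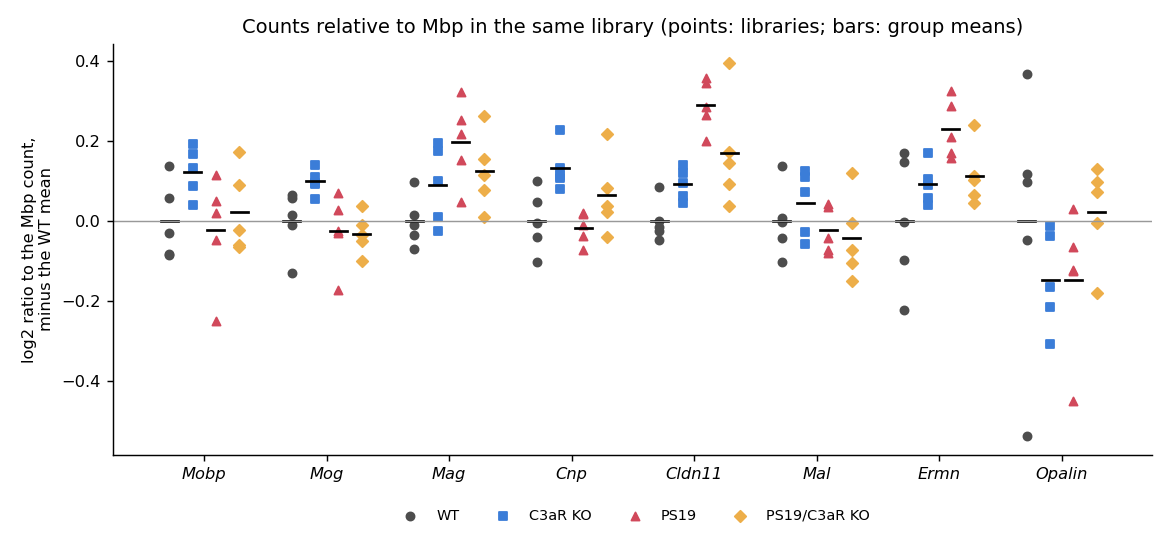
Counts of 8 genes relative to the Mbp count of the same library, as log2 ratios minus the WT mean, for 5 libraries per labelled genotype; bars are group means. The PS19 libraries stand above WT for Cldn11 and mostly so for Mag and Ermn, and in C3aR KO 4 of 5 libraries exceed the highest WT library for Cnp and for Mog.

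Within a genotype the 9 genes went up and down together from library to library. After subtracting each genotype's mean, 13 of the 20 libraries had all 9 genes on the same side of 0, 7 above and 6 below. The 6 low libraries were WT 2 and 4, C3aR KO 2 and 5, and PS19/C3aR KO 2 and 3. The mean deviation ran from -0.46 to 0.31 on the log2 scale in C3aR KO and from -0.12 to 0.14 in PS19. No PS19 library was low in all 9.

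**Figure D4:**
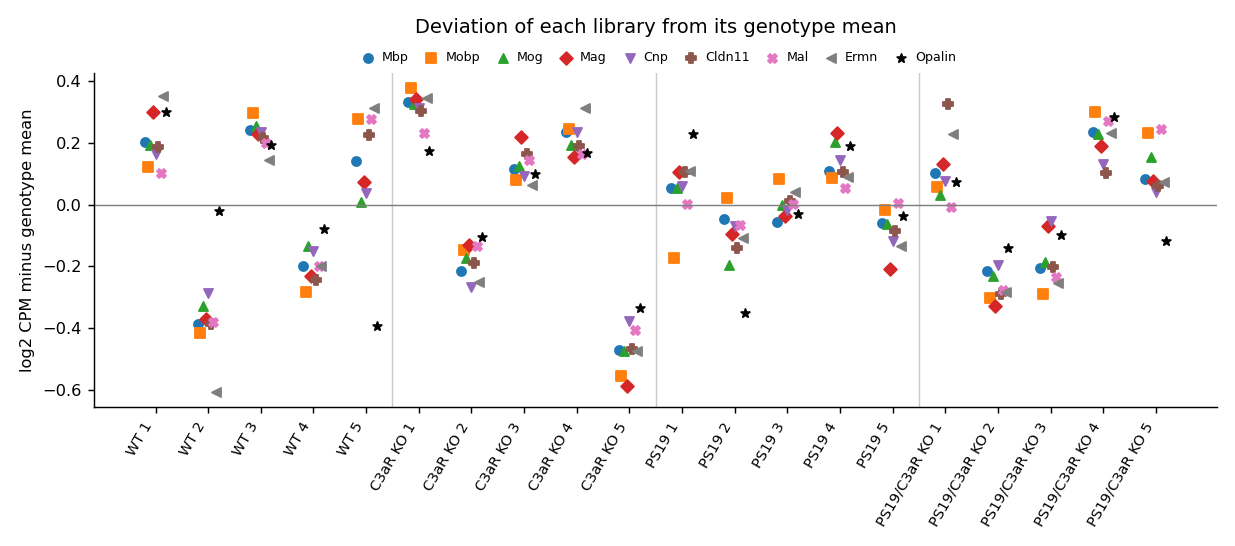
Deviation of log2 CPM from the genotype mean for the 9 genes in each of the 20 libraries, with lines between labelled genotypes. The genes of a library lie close together, as in C3aR KO library 5 where all are low, and Opalin (stars) departs most, as in WT library 5.

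Over the 20 libraries, the Pearson r between pairs of the 9 genes within genotypes ranged from 0.41 to 0.96 with a median of 0.90 over 36 pairs. These values describe how the genes moved with each other and share library, depth and normalization. Mbp had a median r of 0.95 with the other 8. Opalin stood apart with a median of 0.58: in WT library 5 it was 0.39 below its genotype mean while Ermn was 0.31 above.

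Of 13428 genes with a mean log2 CPM of at least 1, the other genes whose pattern was most like the mean of the 9 included Ppp1r14a (r = 0.97 over 20 libraries within genotypes), Evi2a (0.97), Plekhb1 (0.96), Fa2h (0.96), Gpr37 (0.95), Gatm (0.95), Tspan2 (0.95), Plekhh1 (0.94) and Tmem63a (0.94). Fa2h hydroxylates fatty acids of myelin galactolipids and Gatm catalyses a step of creatine synthesis. Values of 0.9 or more were reached by 30 of the 13428 genes, or 0.223%. The 3 genes with the most opposite pattern were Hpcal1 (-0.92), a neuronal calcium sensor, Acvr2a (-0.91), an activin receptor, and C2cd4c (-0.90).

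The other genes of the oligodendrocyte lineage were described by list. For the counts below, 7.5% of the 16657 genes tested were called higher in PS19 against WT. Of 19 other genes of mature oligodendrocytes and myelin, 8 rose in PS19 against WT and 0 fell, with a median log2 fold change of 0.39. They included Trf, the iron carrier transferrin, by 0.91 (SE 0.17, adjusted p = 0.00166), Gsn, the actin-severing protein gelsolin, by 0.67 (SE 0.15, adjusted p = 0.00563), Apod, a lipid-binding lipocalin, by 0.70 (SE 0.17, adjusted p = 0.0126), and Ppp1r14a, an inhibitor of myosin phosphatase, by 0.63 (SE 0.18, adjusted p = 0.025). Of 11 enzymes of myelin lipids 3 rose: Cers2, a ceramide synthase, by 0.38 (SE 0.09, adjusted p = 0.013), Ugt8a, which makes galactosylceramide, by 0.55 (SE 0.16, adjusted p = 0.0302), and the fatty acid elongase Elovl1 by 0.38 (SE 0.12, adjusted p = 0.0468). Their median was 0.38.

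Of 12 transcription factors of the lineage, Nkx6-2 rose by 0.57 (SE 0.13, adjusted p = 0.00666) and Sox10 by 0.45 (SE 0.13, adjusted p = 0.0242), and the median was 0.20. Of 12 genes of the paranode, node and glial junctions, 4 rose and 1 fell, with a median of 0.21. The glial connexin Gjb1 rose by 0.60 (SE 0.17, adjusted p = 0.028), and the glial potassium channel Kcnj10, which astrocytes also express, by 0.65 (SE 0.14, adjusted p = 0.00563). Cntnap1, the axonal partner of the paranode, fell by 0.18 (SE 0.05, adjusted p = 0.0283).

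Earlier stages of the lineage were read from 2 further lists. Of 11 genes of newly formed oligodendrocytes 3 rose, with a median of 0.20, namely Itpr2, a calcium release channel, by 0.26 (SE 0.07, adjusted p = 0.0202), Tns3 by 0.31 and Bcas1 by 0.47. Of 13 genes of oligodendrocyte precursors 2 rose, with a median of 0.14: Gpr37l1, which astrocytes also express, by 0.42 (SE 0.09, adjusted p = 0.00666) and Sox6 by 0.33 (SE 0.08, adjusted p = 0.0139). The growth factor receptor Pdgfra, a precursor marker, was at means of 65.1 CPM in WT and 65.2 CPM in PS19. Its fitted difference was -0.06 (SE 0.08, adjusted p = 0.729), while 10 of the 13 genes lay above 0. Of 12 genes described in disease-associated oligodendrocytes 8 rose, with a median of 1.02, led by complement C4b at 2.33 (SE 0.32, adjusted p = 0.000257), with the class I antigen genes B2m at 1.20 and H2-D1 at 1.18 and the phospholipid-binding Anxa5 at 0.65. Astrocytes or microglia also express several of these, and Klk6, a protease of mature oligodendrocytes, rose by 1.59 (SE 0.42, adjusted p = 0.0199). None of these 7 lists had a called gene in the other 4 comparisons except Il33, an alarmin of oligodendrocytes and astrocytes, which fell by 0.64 (SE 0.12, adjusted p = 0.0322) in PS19/C3aR KO against PS19.

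**Figure D5:**
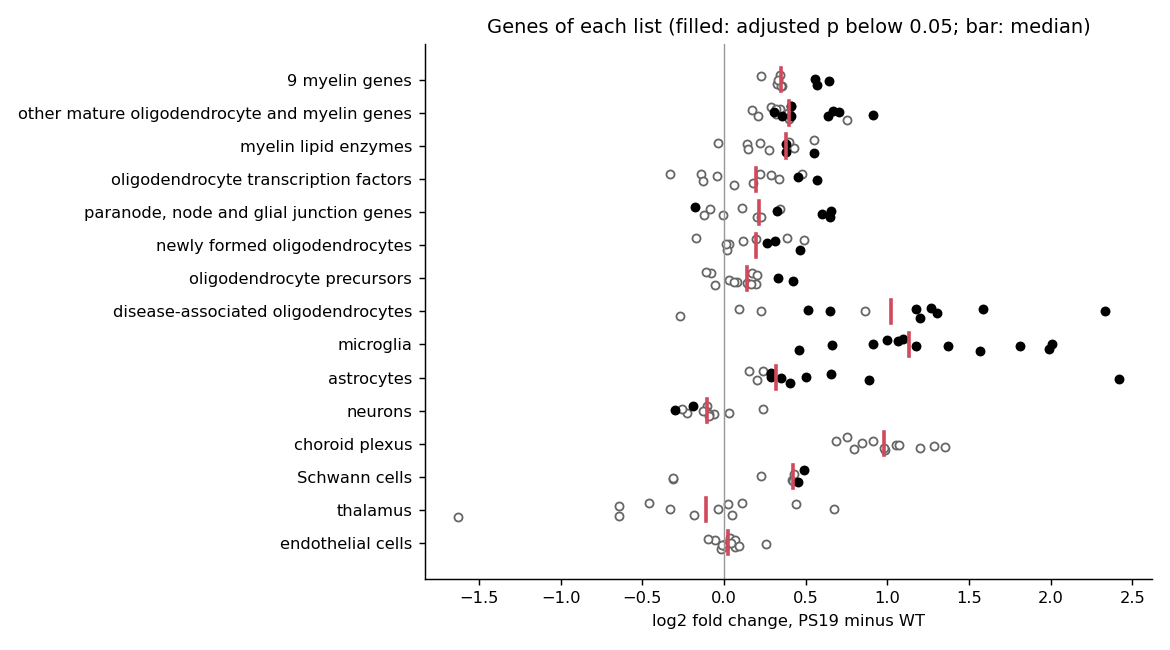
Log2 fold changes in PS19 minus WT for the tested genes of 15 lists, with filled points for an adjusted p below 0.05 and a bar at each median. The myelin genes cluster between 0.22 and 0.65, while microglial genes reach 2.01 and choroid plexus genes are shifted with no call.

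Markers of other cells moved with the same comparison. All 12 microglial genes rose in PS19 (median 1.13), with summed levels of 443 to 474 CPM in WT and 624 to 1408 CPM in PS19. Of 12 astrocyte genes 9 rose (median 0.32) and of 12 neuronal genes 2 fell (median -0.11). Over the 16657 genes tested, 1250 were called higher and 553 lower. Of 12 choroid plexus genes edgeR called 0, and 0 had an unadjusted p below 0.05, although the median was 0.98, with summed levels of 182 to 3015 CPM in WT and 309 to 6412 CPM in PS19. The list includes Enpp2, which is also among the mature oligodendrocyte genes. Within genotypes the mean of the 9 myelin genes had r = 0.55 with the choroid plexus list (Spearman 0.52, and r = 0.51 without the 2 farthest libraries) and r = 0.03 with the microglial list. For the Rn45s share r was 0.19 (Spearman 0.17), and 0.028 without the 2 farthest libraries. Beyond the covariate fits given above, the part of these cells and of Rn45s in the myelin result was not tested.

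Schwann cell genes were read as a check for peripheral nerve. Pmp2, a lipid-binding protein of peripheral myelin, did not exceed 0.0857 CPM in any library. Of the 8 tested genes of that list, Cdh19 and Sox10 rose in PS19, and Sox10 is made throughout the oligodendrocyte lineage too. Of 12 thalamic genes, listed because the dissection could include neighbouring tissue rich in fibres, 0 were called in PS19 against WT. There 1 had an unadjusted p below 0.05 in edgeR, and the median was -0.11. In C3aR KO against WT 0 of the 12 lay above 0 (median -0.52), and in PS19/C3aR KO against C3aR KO 11 did (median 0.61). The 9 myelin genes had these same directions. In PS19/C3aR KO against PS19, 10 of the 12 lay above 0 (median 0.14), but 0 of the 9 myelin genes. No thalamic gene was called there either, and a link to the myelin genes was not tested. None of 12 endothelial genes was called or had an unadjusted p below 0.05.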

How the data were processed

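Per the labels' protocols, read pairs of 76 bases were mapped onto mm10 by TopHat 2.0.9, and htseq-count summed them over the exon union of each gene, and DESeq2 is named without a role per the submitters' processing notes. The authors deposited whole-number counts per gene with no normalization. Annotation release, strand setting and dates: not given in the sources used here.

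Summary lines were left out. CPM are counts over total gene counts (33885850 to 47828111 per library). One edgeR 4.0.16 quasi-likelihood fit (R 4.3.3, TMM, filterByExpr with a minimum count of 10) covered 20 libraries and 16657 genes, all 9 myelin genes among them, with Benjamini-Hochberg adjustment over all genes. DESeq2 1.42.0, limma 3.58.1 (voom), other filters, scalings, covariates and left-out libraries were alternatives. The fit and the permutation test were tested on simulated data. Ratios to Mbp were compared by exact permutation, unadjusted, 8 per comparison. Log2 CPM for likeness used a prior count of 2. Positions are from GENCODE vM21 (GRCm38, the assembly of mm10) and promoters from RefSeq.

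The 9 genes, the gene lists and the tests were chosen with earlier results of these data known. Named genes are the 9 in every comparison, up to 4 called genes per list with the lowest p in PS19 minus WT and up to 3 elsewhere, and the 10 most and 3 least alike genes. A few genes that this rule names are not reported here. Klk6, Pdgfra, Pmp2 and Enpp2 were named after their values were seen.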

Additional observations from a re-analysis of the deposited data

How the results depend on the processing

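The 3 calls among the 9 myelin genes in PS19 minus WT became 1, Cldn11, with the Rn45s share as a covariate, and 1 to 4 when each of the 20 libraries was left out. DESeq2, total counts without TMM, the replicate block and a fit to only the 2 groups gave 4, adding Cnp. The share of all genes called in each alternative fit is not given beside these counts. The counts therefore cannot tell a change in the myelin genes from a change in calling over all genes. No call was made for the 9 genes in the other 4 comparisons under any alternative run, including the replicate block, which gave 0 in each. Deviations of same-numbered libraries had r above 0.1 in 1 to 4 of 5 pairs, depending on the groups, so the numbers were not taken as pairs, although their median r was above that of other pairs in 5 of the 6 pairs of groups (0.24 at most).

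In C3aR KO minus WT, some log2 differences close to 0 changed sign. Mobp was 0.0214 with the Rn45s covariate and ran from -0.176 to 0.0403 over the left-out libraries, with Mog from -0.18 to 0.00803, Mag from -0.19 to 0.0192 and Cnp from -0.143 to 0.0241. Values above 0 came without C3aR KO library 5 (all 4 genes), WT library 3 (Mobp and Cnp) or C3aR KO library 2 (Cnp). The cause was not tested. Of the 3 ratios to Mbp below 0.05 in PS19 minus WT, 2 to 4 were so when a library was left out, 2 with Cnp as reference and 0 in the edgeR fit with the Mbp count as offset. In PS19/C3aR KO minus C3aR KO the 1 ratio became 1 to 3, 1 (Opalin) and 0. In a replicate block of 5 pairs the ratio test cannot go below p = 0.0625 (exact permutation), so it gave no call.

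Leaving out a library leaves 4 in its group. The counts limit these genes little: Opalin, the lowest, had over 10 CPM in each library.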
